A study of Mus musculus with 9 samples.

Results

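Cycling macrophages of the mouse liver were described in a single-cell RNA data set from carbon tetrachloride (CCl4) injury. They were chosen on raw UMIs, the unique molecular identifiers by which PCR copies of a transcript are counted once, among cells with at least 200 detected genes. A cell had to hold at least 5 UMIs in sum of the macrophage genes C1qa, C1qb, C1qc, Csf1r and Cd68 and at least 5 in sum of the mitotic genes Mki67, Top2a, Cenpe, Cenpf, Kif11 and Nusap1. Cells with 20 or more UMIs of the granulocyte-progenitor genes Elane, Mpo and Prtn3, or more than 1 UMI of the mesothelial genes Msln and Upk3b, were left out. This gave 350 cycling macrophages among 4617 cells with at least 200 genes in the matrix that could be read by gene name, of 47781 cells in the whole series. The 1842 cells that passed the same macrophage gate with fewer than 5 mitotic UMIs are called non-cycling macrophages. Cycling macrophages were 16.0% of the 2192 gated macrophages (exact 95% binomial interval 14.5 to 17.6).

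Macrophages of the adult liver come from resident Kupffer cells, which carry lectins, scavenger receptors and complement receptors such as Clec4f, Marco and Vsig4, and from blood monocytes, which carry Ly6c2 and Ccr2 on arrival. In injured liver, a lipid-associated state marked by Gpnmb, Spp1 and Trem2 is found in scars and beside fat. Tissue macrophages can renew themselves by division under the growth factor receptor Csf1r. In the cell cycle, E2F factors switch on replication genes such as the Mcm helicase subunits at the start of S phase, and the DREAM and MuvB complexes with B-Myb and Foxm1 then time the genes of G2 and mitosis, such as cyclin B and the mitotic kinases.

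The study asked how clusterin, a secreted chaperone, and its receptor LRP2 relate to liver fibrosis, and its single-cell arm used C57BL/6J mice aged 6 to 8 weeks. Mice of genotype CluKO received recombinant human clusterin while CCl4 was injected, with no duration in the labels, and their 6 samples share 1 matrix with no map from cells to samples. The design text names 3 mice and speaks of pooling. The other 3 groups, of 1 sample each, are wild-type livers after 0, 2 or 4 weeks of CCl4, and the rows of their matrices are not paired with gene names, so they were not analysed here. The matrix labelled CluKO was therefore 1 pooled sample: both groups compared below come from the same animals, all CluKO and all given clusterin and CCl4, no test was possible, and intervals reflect the number of UMIs or cells counted and say nothing of differences among mice.

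The pooled matrix held 28912707 UMIs over 4694 cells with 4694 distinct barcodes. The cycling macrophages held 2391 to 35108 UMIs each (median 7916.5), against 2373 to 40710 (median 4763) in non-cycling macrophages. Their median number of detected genes was 2708.5, against 1837 in non-cycling macrophages, and the median mitochondrial share was 1.58%, against 1.84%. Depth thus moved with the grouping. With every cell thinned to 2000 UMIs before gating, 137 of 2074 macrophages passed (6.61%, 5.57 to 7.76).

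The values that chose the cells were as follows. Cycling macrophages held 5 to 102 mitotic gate UMIs (median 18.5), while 1471 of the 1842 non-cycling macrophages held 0, 239 held 1, 65 held 2, 42 held 3 and 25 held 4. Just inside the threshold, the 16 cells with exactly 5 mitotic UMIs had medians of 36 UMIs over a list of G2 and mitosis genes and 8 over a list of S-phase genes, at 6504.5 UMIs per cell. Just outside it, the 25 cells with exactly 4 had medians of 20 and 5 UMIs over those lists, at 5180 UMIs per cell. The threshold thus runs through a slope and not through a gap. On the macrophage side, 23 cycling cells held exactly 5 macrophage gate UMIs, 17 held 6 and 10 held 7, against a median of 95.5.

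**Figure D1:**
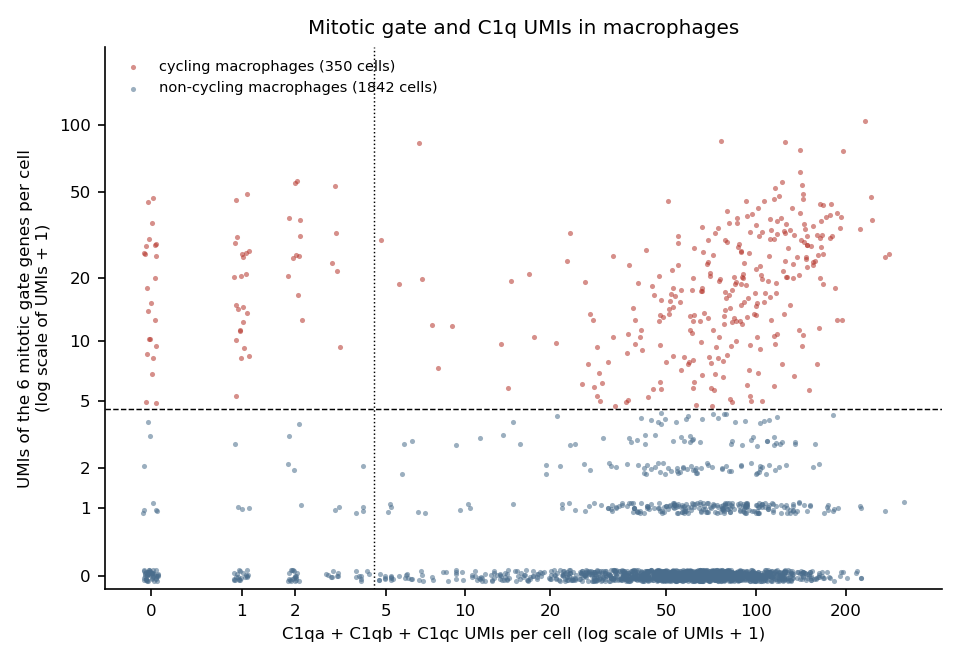
Each point is 1 macrophage of the pooled matrix, with the sum of its C1qa, C1qb and C1qc UMIs on the x axis and the sum of its UMIs of the 6 mitotic gate genes on the y axis, both on a log scale of UMIs + 1 with a small jitter. The dashed line marks the mitotic threshold of 5 UMIs and the dotted line 5 C1q UMIs; 62 of the 350 cycling cells lie left of the dotted line, apart from the 288 on its right.

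The label was checked against its markers with every cell thinned to 2000 UMIs, which no cell fell short of. Csf1r, the receptor for macrophage colony-stimulating factor, had a UMI in 67.7% of cycling macrophages, 78.8% of non-cycling macrophages and 7.38% of the 2425 cells outside the macrophage groups. C1qb, a chain of the complement trigger C1q, was found in 84.6%, 93.9% and 8.99% of the same groups. Pf4, a platelet and macrophage chemokine, was found in 47.7%, 46.6% and 2.56%. Gpnmb, a glycoprotein of lipid-laden macrophages, was found in 70.0%, 68.0% and 13.6%. Adgre1, which encodes the macrophage surface protein F4/80, was found in 48.3%, 70.1% and 2.60%. These 3 genes are not in the gate, and their shares were higher in both macrophage groups than in the other cells, while Adgre1 was found in a smaller share of cycling than of non-cycling macrophages. Top2a, the topoisomerase that untangles sister chromatids, was found in 64.6% of cycling and 2.44% of non-cycling macrophages, and Cenpe, a kinetochore motor, in 39.1% and 1.41%. Without thinning, the shares in cycling and non-cycling macrophages were 93.7% and 94.2% for Csf1r, 89.7% and 95.2% for C1qb, 64.6% and 59.4% for Pf4, 77.1% and 73.3% for Gpnmb, 80.3% and 89.7% for Adgre1, 90.9% and 6.84% for Top2a, and 75.7% and 3.04% for Cenpe. Csf1r, C1qb, Top2a and Cenpe belong to the gate, so their shares describe the rule and say nothing for the label. Over the 12 macrophage markers, gate genes included, the log2 ratio of cycling to non-cycling macrophages had a median of -0.46, with 10 of 12 below 0 and none past 2-fold. A set of C1q-low cells that went against the label is described below.

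To show what genes of each phase share in sequence, promoters were read from RefSeq (GRCm38.p6), from 250 bases before to 50 bases after each transcription start. Both strands were searched for the cell cycle homology region (CHR, TTTGAA or TTCGAA), which MuvB complexes bind, for the NF-Y box CCAAT, and for the E2F motifs TTTGGCGC and TTTCCCGC; none of these motifs contains another. Of 59 promoters of 54 G2 and mitosis genes, 74.6% held a CHR and 72.9% a CCAAT box, against 19.2% and 37.4% of all 32851 promoters. Of 42 promoters of 36 S-phase genes, 11.9% held a CHR, but 26.2% held an E2F motif, against 8.47% of G2 and mitosis promoters and 1.57% of all promoters. A CHR together with at least 2 CCAAT boxes stood in 39.0% of G2 and mitosis promoters and in 2.31% of all. A match in this window is a description and not a site shown to be bound. The promoters printed below were picked among those of genes higher in cycling macrophages that held the motifs in question. These were a CHR with a CCAAT box, or an E2F motif for S-phase genes, so the printed matches follow from that choice. Promoters of 5 genes that carry the results are printed 5′ to 3′ on the gene's strand, with CHR and CCAAT matches of either strand in capitals in the first 3 and E2F matches alone in capitals in the last 2. The first 3 are those of Prc1 (chr7:80294201-80294500, plus strand), Ube2c (chr2:164769679-164769978, plus strand) and the gate gene Top2a (chr11:99024140-99024439, minus strand), and the last 2 those of Mcm7 (chr5:138171834-138172133, minus strand) and Mcm5 (chr8:75109259-75109558, plus strand).
Prc1: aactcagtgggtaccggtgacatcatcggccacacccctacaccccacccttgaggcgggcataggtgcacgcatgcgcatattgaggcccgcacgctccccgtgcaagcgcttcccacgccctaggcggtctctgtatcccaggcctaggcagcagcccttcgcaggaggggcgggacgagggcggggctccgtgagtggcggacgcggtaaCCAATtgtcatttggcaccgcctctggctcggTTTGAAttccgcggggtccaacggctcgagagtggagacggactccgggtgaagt
Ube2c: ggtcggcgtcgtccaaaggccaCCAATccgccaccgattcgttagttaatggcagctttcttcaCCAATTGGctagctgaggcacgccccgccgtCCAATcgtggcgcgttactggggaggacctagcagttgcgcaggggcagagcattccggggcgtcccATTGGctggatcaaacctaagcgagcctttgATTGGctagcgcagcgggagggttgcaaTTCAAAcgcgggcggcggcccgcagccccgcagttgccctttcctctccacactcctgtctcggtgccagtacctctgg
Top2a: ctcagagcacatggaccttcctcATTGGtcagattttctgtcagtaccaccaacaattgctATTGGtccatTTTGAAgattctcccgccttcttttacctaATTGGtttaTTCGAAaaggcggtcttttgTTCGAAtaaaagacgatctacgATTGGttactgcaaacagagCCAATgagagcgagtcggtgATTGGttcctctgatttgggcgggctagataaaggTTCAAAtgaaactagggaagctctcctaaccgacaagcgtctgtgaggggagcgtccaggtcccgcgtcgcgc
Mcm7: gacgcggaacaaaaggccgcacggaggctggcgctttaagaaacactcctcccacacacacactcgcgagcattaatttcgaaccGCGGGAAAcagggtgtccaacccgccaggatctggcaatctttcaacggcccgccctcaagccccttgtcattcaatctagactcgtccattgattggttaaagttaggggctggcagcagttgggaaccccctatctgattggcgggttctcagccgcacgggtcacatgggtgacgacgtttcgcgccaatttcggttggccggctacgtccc
Mcm5: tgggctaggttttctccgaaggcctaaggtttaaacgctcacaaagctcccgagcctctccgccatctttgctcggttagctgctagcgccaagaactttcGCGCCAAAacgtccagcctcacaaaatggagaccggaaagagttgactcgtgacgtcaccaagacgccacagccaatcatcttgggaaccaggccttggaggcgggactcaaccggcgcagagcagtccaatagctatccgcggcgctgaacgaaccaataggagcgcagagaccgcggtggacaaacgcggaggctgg

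Genes of cycling and non-cycling macrophages were compared by UMIs summed over the cells of each group and scaled to a total of 1000000, given as CPM. The log2 ratio was taken with an offset of 20 CPM on each side, which draws the ratios of low genes toward 0, and a gene was called at a 2-fold difference or more. Of 3444 genes with at least 30 UMIs in sum and at least 50 CPM in either group, 218 were higher in cycling macrophages (6.33%) and 28 were lower (0.813%). The median over all these genes was 0.07. Of the 218 higher genes, 110 belong to the main cell cycle lists or the gate and 108 to neither. Those lists are S phase, G2 and mitosis, histones and chromatin, and cell cycle transcription factors. The 108 still include cell cycle genes, such as Pclaf, Cenph, Esco2 and Cdkn2c. Genes that go with the gate genes follow from how the cells were chosen, so these values describe the cells and carry no test, and a gene low in non-cycling macrophages could enter only by being high in cycling ones.

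The G2 and mitosis genes stood furthest apart. Of 64 genes listed, 54 passed the level filter, 53 of these were higher by 2-fold or more, and their median log2 ratio was 2.47. Prc1, which bundles the microtubules of the spindle midzone (ENSMUSG00000038943, GRCm38 chromosome 7, 80294450 to 80316259, plus strand), had per-cell quartiles of 1.42, 3.18 and 6.14 UMIs per 10000 in cycling macrophages (highest 21.2), against quartiles of 0 in non-cycling macrophages (highest 8.47). In sum this was 419 CPM (95% Poisson interval 397 to 442) in cycling and 7.24 CPM (5.69 to 9.07) in non-cycling macrophages, a 57.9-fold difference (45.9 to 74.1). At least 3 in 4 cycling cells lay above at least 3 in 4 non-cycling cells, yet the ranges overlapped. Ccnb2, a cyclin that drives entry into mitosis (ENSMUSG00000032218, chromosome 9, 70407692 to 70421547, minus strand), had a median of 8.30 UMIs per 10000 in cycling cells and 0 in non-cycling cells, and summed to 938 and 76.5 CPM, 12.2-fold apart (11.3 to 13.3). Ube2c, the ubiquitin-conjugating enzyme of the anaphase-promoting complex, summed to 518 CPM in cycling and 23.4 CPM in non-cycling macrophages, and the mitotic kinase Cdk1 to 313 and 20.3 CPM. The exception was Pttg1, securin, at 97.1 CPM in cycling and 90.4 CPM in non-cycling macrophages (1.07-fold, 0.941 to 1.22).

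The replication genes differed less. Of 47 genes on the S-phase list, 28 passed the filter and 27 were higher by 2-fold or more, with a median log2 ratio of 1.56. Pcna, the sliding clamp of the DNA polymerases (ENSMUSG00000027342, chromosome 2, 132249162 to 132253314, minus strand), summed to 397 CPM (375 to 420) in cycling and 125 CPM (119 to 132) in non-cycling macrophages, a 3.16-fold difference (2.93 to 3.42). Its per-cell upper quartile was 5.66 UMIs per 10000 in cycling cells and 1.86 in non-cycling cells, so many cells of both groups held it. Rrm2, the regulated subunit of ribonucleotide reductase, summed to 222 and 12.6 CPM, 17.6-fold apart (14.6 to 21.3). The helicase genes Mcm5 and Mcm7, whose promoters are printed above, stood at 98.7 and 105 CPM in cycling and at 16.8 and 16.3 CPM in non-cycling macrophages. Pold3, a subunit of DNA polymerase delta, was the gene of the list under 2-fold, with a log2 ratio of 0.83.

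On the list named histones and chromatin of dividing cells, 20 of the 21 genes that passed the filter were higher, with a median log2 ratio of 2.25. H2afx, the histone that marks DNA breaks when phosphorylated, summed to 290.1 CPM in cycling and 16.7 CPM in non-cycling macrophages. Tuba1b, an alpha-tubulin, summed to 1657 and 324 CPM, and Stmn1, which binds free tubulin, to 599 and 62.0 CPM. These 2 are genes of the cytoskeleton and not of chromatin. Genes of the histone clusters are near-identical copies among which reads may be split, so their values are uncertain. The cell cycle regulators themselves were sparse: 6 of 18 transcription factor and DREAM genes passed the filter, and Foxm1, E2f8 and Rbl1 were higher, with log2 ratios of 1.80, 1.78 and 1.33. Foxm1, the factor that drives mitotic genes, summed to 52.4 CPM in cycling and 0.772 CPM in non-cycling macrophages.

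Genes that govern the choice to divide did not follow the same pattern. Of 5 G1 cyclins and kinases that passed the filter, none reached 2-fold on all cells. Ccnd3 stood at 116 CPM in cycling and 48.5 CPM in non-cycling macrophages (log2 ratio 0.99). That ratio lay just under 2-fold and passed it in 5 of the other settings tried, up to 1.52 among cells with 4000 to 12000 UMIs, but was 0.31 among cells with at least 5 C1q UMIs. Its kinase partner Cdk4 stood at 149 and 78.3 CPM (0.78), and Ccnd1 at 48.6 and 77.5 CPM (-0.51). Among 7 cell cycle brakes, Cdkn2c and Cdkn2d, inhibitors of the cyclin D kinases, were higher with log2 ratios of 2.20 and 1.87, as was Fzr1, an activator of the anaphase-promoting complex, at 1.16. Cdkn1a, the p53-induced inhibitor p21, was nearly level, at 165 CPM in cycling and 155 CPM in non-cycling macrophages (1.06-fold, 0.960 to 1.17). Of 11 regulators of macrophage self-renewal, none reached 2-fold and all 11 had log2 ratios below 0, among them the transcription factor gene Klf2, at 82.9 CPM in cycling and 148 CPM in non-cycling macrophages (-0.71). The 12 myeloid growth factors and receptors had a median of -0.26, with Igf1 at 659 and 832 CPM.

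Each cycling macrophage was placed by the share of S-phase UMIs among its S-phase plus G2 and mitosis list UMIs, a ratio that does not need equal depth. The median share was 20.6% (quartiles 11.2 and 39.5, range 0 to 80.9). Of the 350 cells, 21 lay above 2/3 (6.00%, 3.75 to 9.03), 88 between 1/3 and 2/3 (25.1%, 20.7 to 30.03) and 241 below 1/3 (68.9%, 63.7 to 73.7). Most of the genes that picked the cells peak late in the cycle, and the classes are ranges of a continuous score, with 41 cells within 0.05 of the lower limit and 19 within 0.05 of the upper.

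Across these ranges the genes took turns. Mcm2 stood at 481 CPM in cells above 2/3, 248 CPM between the limits and 59.5 CPM below 1/3, and Ccne1, the cyclin of S-phase entry, at 138, 77.6 and 10.8 CPM. Rrm2 was highest between the limits, at 357, 466 and 96.9 CPM, and so was the linker histone gene Hist1h1b, at 181, 247 and 77.2 CPM. The mitotic genes ran the other way. Ccnb2 stood at 210, 379 and 1267 CPM, Ube2c at 33.3, 216 and 707 CPM, and Cdc20, the activator of anaphase, at 9.52, 45.3 and 177 CPM. Mcm2, Rrm2, Ccnb2, Ube2c and Cdc20 are on the lists that make the score, so this order describes how the cells were ranged, and Cdkn2c, which is on neither list, stood at 33.3, 121 and 121 CPM.

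Cells below the mitotic threshold also held cell cycle UMIs. Of 1842 non-cycling macrophages, 83 had at least 20 S-phase list UMIs (4.51%, 3.60 to 5.56), 62 had at least 20 G2 and mitosis list UMIs (3.37%, 2.59 to 4.29), and 14 had both. In cycling macrophages these shares were 56.6% and 97.7%. Mcm2 stood at 327 CPM in the 83 cells, against 25.9 CPM in the 1711 with neither, while Ccnb2 there was 63.9 CPM, against 49.2 CPM. The limit of 20 is a raw count, and depth moved with it: the 83 cells had a median of 8152 UMIs, against 4653 in those with neither. The lowest S-phase list level in the 83 was 5.90 UMIs per 10000, below the upper quartile of 7.53 in those with neither. Counting the 131 cells with either list beside the 350 cycling cells gave 481 of 2192 macrophages (21.9%, 20.2 to 23.7). The gate therefore left out cells with many replication UMIs and few mitotic ones.

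**Figure D2:**
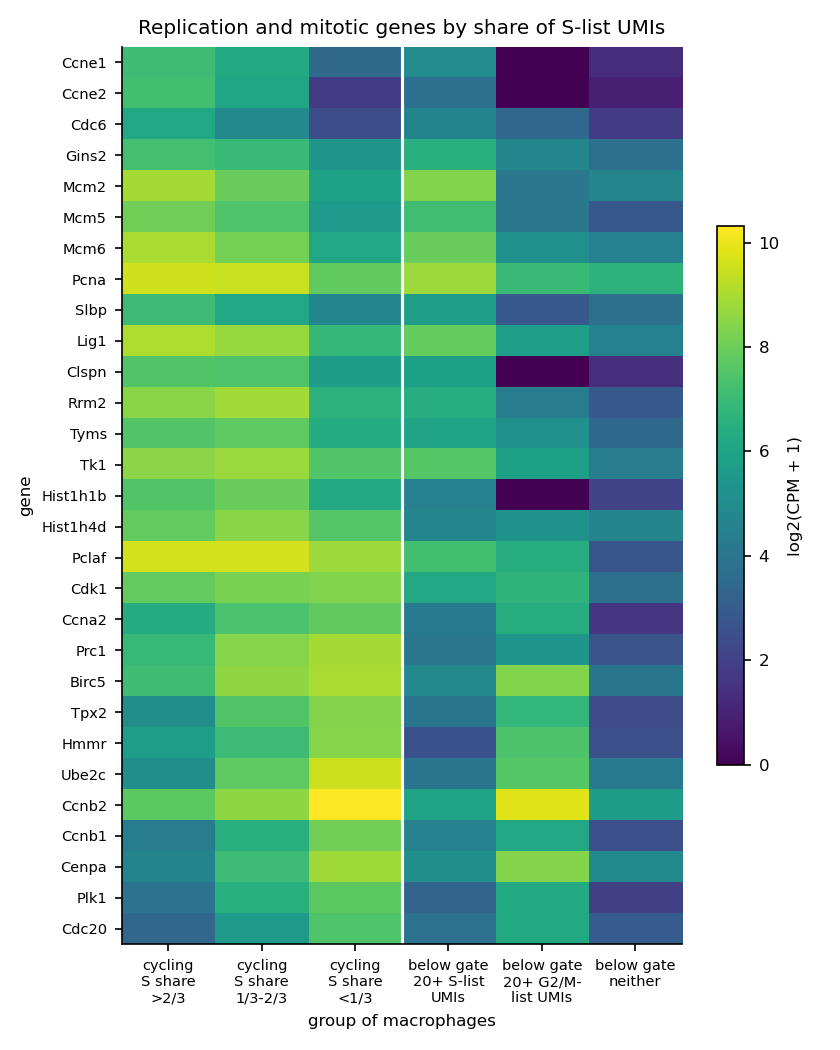
Colour gives log2(CPM + 1) of 29 replication and mitotic genes (rows) in 6 groups of macrophages (columns): the cycling cells in 3 ranges of the S-phase share on the left, and the non-cycling cells with 20 or more S-phase list UMIs (83 cells), with 20 or more G2 and mitosis list UMIs and fewer S-phase list UMIs (48 cells) and with neither (1711 cells) on the right. Mcm2 is at 481 CPM in the first column and 327 CPM in the fourth, while Ccnb2 is at 1267 CPM in the third and 905 CPM in the fifth.

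The 15 genes with the highest ratio outside the gate and the lists of S phase, G2 and mitosis, histones and chromatin, and cell cycle transcription factors were led by Pclaf. Pclaf, a partner of Pcna at the replication fork (ENSMUSG00000040204, chromosome 9, 65890237 to 65903266, plus strand), had per-cell quartiles of 1.63, 4.38 and 8.43 UMIs per 10000 in cycling cells, against quartiles of 0 in non-cycling cells. It summed to 565 CPM (539 to 592) in cycling and 19.1 CPM (16.5 to 22.0) in non-cycling macrophages, 29.6-fold apart (25.5 to 34.4). The kinetochore genes Cenph, Spc24 and Knstrn had log2 ratios of 2.68, 2.67 and 2.06. The nuclear envelope and heterochromatin genes Tmpo and Cbx5 stood at 2.61 and 2.29, the cohesin acetyltransferase Esco2 at 2.58, the abscission gene Cep55 at 2.26 and Fbxo5, an inhibitor of the anaphase-promoting complex, at 2.22. Cdkn2c, the noncoding RNA Lockd, the nuclear import gene Kpna2 and the phosphatase gene Cdkn3 stood between 2.10 and 2.20. Ly6c2, a surface protein of monocytes, was also among them, at 503 CPM in cycling and 95.3 CPM in non-cycling macrophages (log2 ratio 2.18). Its UMIs were concentrated in few cells, with a per-cell median of 0 and an upper quartile of 1.16 UMIs per 10000 in cycling cells, and reads may be split with its close copy Ly6c1. With the cells limited to those with at least 5 C1q UMIs, the Ly6c2 log2 ratio was 0.22.

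The 15 genes with the lowest ratio were led by Hist1h2bc, a gene of histone H2B outside those lists (ENSMUSG00000018102, chromosome 13, 23684199 to 23692908, plus strand). Its per-cell median was 0 in cycling and 3.07 UMIs per 10000 in non-cycling macrophages, and it summed to 146 CPM (133 to 160) in cycling and 579 CPM (564 to 593) in non-cycling macrophages (log2 ratio -1.85). Next came genes of resident Kupffer cells. Cd163, the scavenger receptor for haemoglobin bound to haptoglobin, summed to 68.4 CPM in cycling and 262 CPM in non-cycling macrophages (-1.67), and Clec4f, a lectin of Kupffer cells (ENSMUSG00000014542, chromosome 6, 83644542 to 83656187, minus strand), to 478 and 1434 CPM (-1.54). The per-cell upper quartile of Clec4f was 0.888 UMIs per 10000 in cycling and 40.0 in non-cycling macrophages, so a minority of cells carried it in both groups and a larger one among the non-cycling. Fcna, Marco, Timd4 and Vsig4, which bind microbes, dying cells or complement, had log2 ratios of -1.52, -1.31, -1.19 and -1.09. The others were Slfn5, an interferon-induced gene (-1.48), C6, a complement component (-1.35), the fungal lectin receptor gene Clec4n (-1.31), Apoc1 (-1.22), Sema6d (-1.18), the eosinophil chemokine gene Ccl24 (-1.15), Adgre4 (-1.13) and the sialic acid receptor gene Siglece (-1.12). These calls moved with the setting. Among cells with 4000 to 12000 UMIs the log2 ratio was -0.80 for Clec4f, -0.997 for Cd163 and -0.46 for Vsig4. With the gate set on cells thinned to 2000 UMIs it was -0.94 for Clec4f, -1.22 for Cd163 and -0.56 for Vsig4. That gate called 137 cells cycling and 1937 non-cycling, at medians of 6992 and 4966 UMIs. Depth thus still differed and the cells chosen changed too, and the part of each was not tested.

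**Figure D3:**
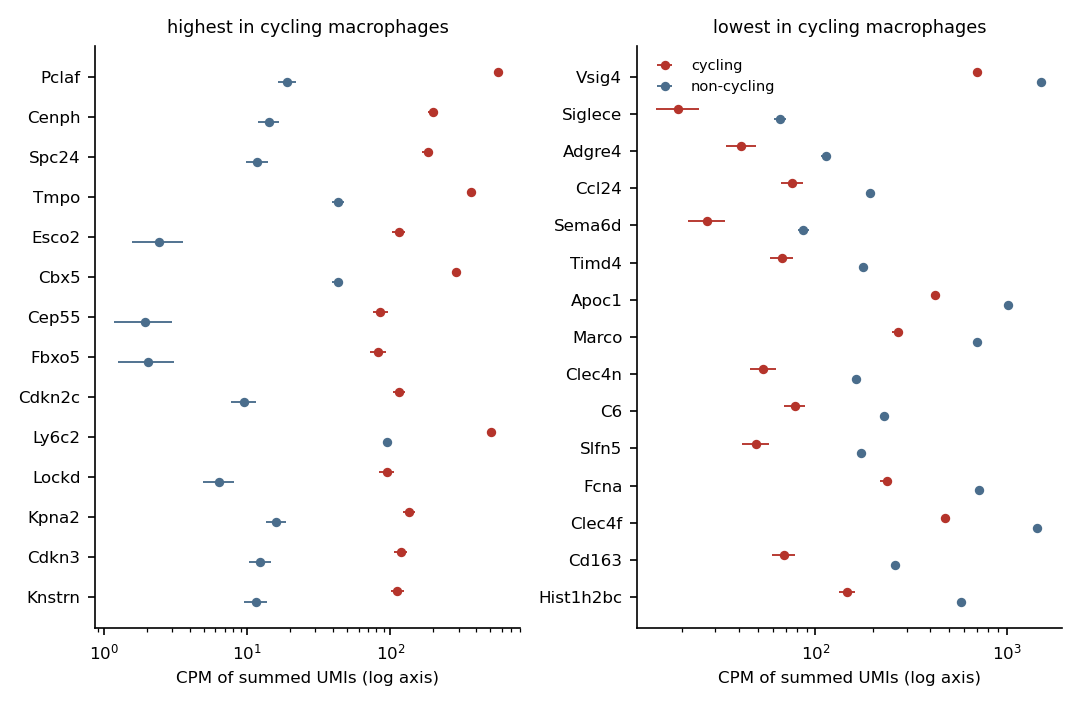
Summed UMIs as CPM on a log axis for 14 of the 15 genes highest (left panel) and the 15 lowest (right panel, lowest ratio at the bottom) in cycling macrophages by the log2 ratio, with cycling and non-cycling macrophages as points and exact 95% Poisson intervals as bars. Pclaf is at 565 against 19.1 CPM and Hist1h2bc at 146 against 579 CPM.

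Macrophage identity genes were then read as lists, each beside the median of 0.07 over all genes that passed. The Kupffer list had a median of -0.97 over 17 of 20 genes, all 17 below 0 and 8 lower by 2-fold or more. Cd5l, a secreted scavenger protein, and Slc40a1, the iron exporter, stayed under 2-fold at 1873 and 859 CPM in cycling and 3076 and 1487 CPM in non-cycling macrophages. The lipid-associated list had a median of -0.15 over 27 genes and none past 2-fold: Gpnmb stood at 7334 CPM in cycling and 7194 CPM in non-cycling macrophages (1.02-fold, 1.00 to 1.03), Mmp12, the macrophage elastase, at 1426 and 1503 CPM, and Trem2, a lipid receptor, at 913 and 1045 CPM. Among cells with 4000 to 12000 UMIs, however, its median was -0.70. Vim, an intermediate filament, was the highest of that list, at 1227 and 812 CPM (log2 ratio 0.58). The MHC class II list, for antigen presentation, had a median of -0.40 over 10 genes with none past 2-fold, Cd74 at 2014 and 3216 CPM, but a median of 0.11 among cells with 4000 to 12000 UMIs. The classical monocyte list had a median of 0.45 over 19 genes, and among those higher were Ly6c2, Vcan, Fn1 and F13a1 (2.18, 1.20, 1.08 and 1.07). Summed over the whole monocyte list the UMIs ran the other way, at 127 per 10000 in cycling and 149 per 10000 in non-cycling macrophages, with per-cell medians of 91.6 and 119. With at least 5 C1q UMIs per cell, the monocyte median was -0.27 and the Kupffer median -0.83, while among cells with 4000 to 12000 UMIs they were 1.23 and -0.62. Fn1 was under 2-fold with at least 5 C1q UMIs, at a log2 ratio of 0.60.

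Functional lists had few genes past 2-fold on all cells. Of 23 genes of uptake of dying cells and complement, C4b, Vsig4 and Timd4 were lower and the median was -0.42, with Mertk, a receptor for dying cells, at 110 CPM in cycling and 196 CPM in non-cycling macrophages. Of 15 cytokine and chemokine genes only Ccl24 passed 2-fold, and Pf4 stood at 934 and 764 CPM. Fn1 was higher among 10 matrix genes, whose median was -0.14. Its log2 ratio was under 2-fold in several other settings. It was 0.56 with at least 10 macrophage UMIs and -0.31 with the gate set on cells thinned to 2000 UMIs. Iron and haem genes had a median of -0.46 over 12, with Cd163 lower. Interferon-response genes had a median of -0.45 over 9, all below 0, with Ifit3 lower at 14.5 and 52.5 CPM. Among cells with at least 10 UMIs of Gpnmb and Spp1, the uptake, iron and interferon medians were -0.14, -0.31 and -0.20. Among the other cells they were -0.86, -0.85 and -0.75. With the gate set on cells thinned to 2000 UMIs, the uptake and interferon medians were -0.20 and -0.21. C4b, Vsig4 and Timd4 were under 2-fold there, at -0.53, -0.56 and -0.73. Dissociation-induced genes had a median of -0.27 over 11 with none past 2-fold, Junb at 186 and 317 CPM, and 3 cholesterol genes a median of -0.61 with none past 2-fold.

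Growth and energy lists had medians above the 0.07 of all genes on all cells. Several were lower with the gate set after thinning, which called 137 cells cycling and 1937 non-cycling. The nuclear oxidative phosphorylation list had a median of 0.20 over 23 genes, 20 of them above 0 and none past 2-fold, with Cyc1, cytochrome c1, at 170 CPM in cycling and 128 CPM in non-cycling macrophages. Glycolysis had a median of 0.12 over 12 genes with none past 2-fold, Gapdh at 977 and 740 CPM. Among 6 genes of nucleotide synthesis the median was 0.39 with none past 2-fold, and Impdh2, which makes guanine nucleotides, was the highest at 77.3 and 32.0 CPM. With the gate set on cells thinned to 2000 UMIs, the medians were 0.06 for oxidative phosphorylation, -0.18 for glycolysis, 0.52 for nucleotide synthesis and 0.14 for ribosome biogenesis. The median of all genes under that gate is not given here, so these values cannot be set against the 0.07. Of 16 ribosome biogenesis and MYC target genes, Ran and Ranbp1, which serve nuclear transport and spindle assembly, were higher at 1.31 and 1.17, and the median was 0.38. Of 4 repair genes, H2afx, Topbp1 and Rnaseh2b were higher, and of 17 cytokinesis and actin genes, Prc1, Racgap1, Anln, Kif23, Cep55 and Tmsb10 were, while Actb stood at 8413 and 8366 CPM. After the same thinning Ran, Ranbp1 and Rnaseh2b were under 2-fold, at 0.85, 0.64 and 0.52. Among 7 granulocyte-monocyte progenitor genes that passed the filter, whose Elane, Mpo and Prtn3 were limited by the gate, none passed 2-fold and the median was -0.18.

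**Figure D4:**
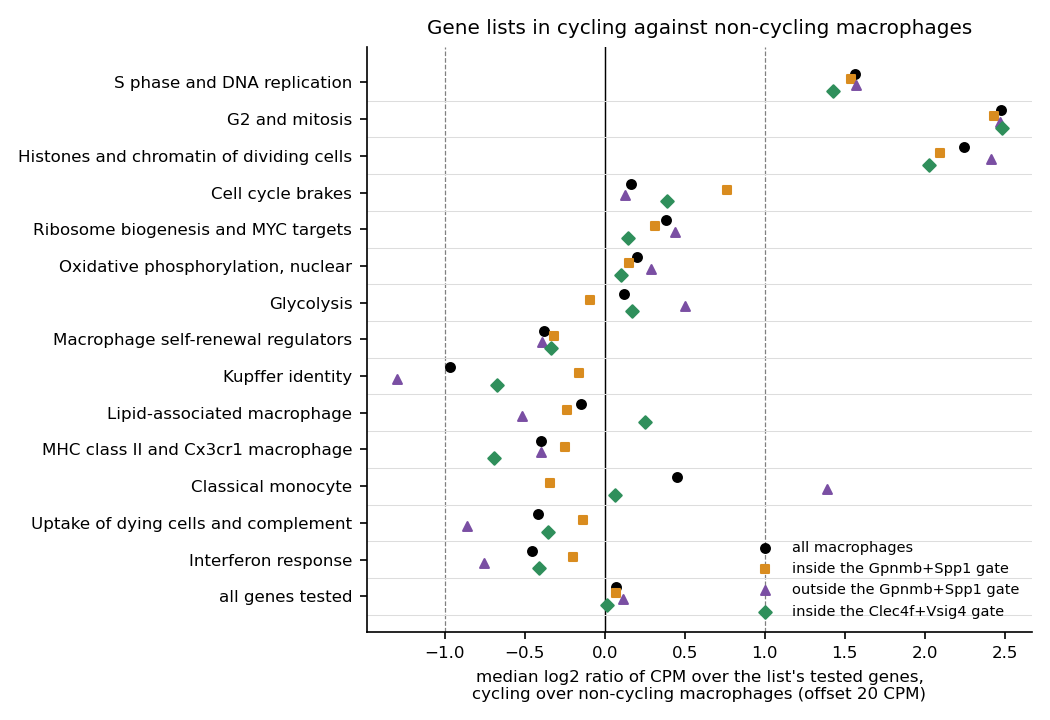
Median log2 ratio of CPM, cycling over non-cycling macrophages with an offset of 20 CPM, over the genes of each list that passed the level filter, in all macrophages (circles), inside (squares) and outside (triangles) the Gpnmb+Spp1 gate and inside the Clec4f+Vsig4 gate (diamonds). Dashed lines mark 2-fold; the G2 and mitosis list stays between 2.43 and 2.48 in all 4, while the Kupffer list is at -0.97, -0.16, -1.30 and -0.67.

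A set of cycling cells went against the macrophage label. Of the 350, 62 (17.7%, 13.9 to 22.1) held fewer than 5 UMIs of C1qa, C1qb and C1qc, against 125 of 1842 non-cycling macrophages (6.79%, 5.68 to 8.03). This limit was chosen after the values were seen; 23 cycling cells had 0 C1q UMIs and 9 had 3 to 7, while the 288 others had a median of 88. Of the 62 cells, 59 had at least 3 UMIs of Ccr2 and Ly6c2, 1 had at least 10 of Gpnmb and Spp1 and 0 had at least 3 of Clec4f and Vsig4. Ly6c2 stood at 3236 CPM in the C1q-low cycling cells and 58.7 CPM in the other cycling macrophages, Ccr2, the monocyte chemokine receptor, at 921 and 37.0 CPM, and F13a1 at 1092 and 55.0 CPM. Chil3 stood at 2173 and 98.6 CPM, and Prtn3, a granule protease of granulocyte and monocyte precursors, at 754 and 11.7 CPM. Gpnmb ran the other way, at 140 CPM in C1q-low and 8502 CPM in the other cycling cells, and Csf1r at 248 and 640 CPM, so these cells are called C1q-low and not macrophages. They passed the gate, however, and stay among the 350 cells in values given for cycling macrophages as a whole. Their median UMIs were 6926.5, against 8417.5 in the other cycling cells.

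The cell cycle genes of the C1q-low cells differed in part from those of the other cycling cells. Ccnb2 stood at 1288 CPM in C1q-low and 881 CPM in the other cycling cells, Pclaf at 1112 and 476 CPM, and the chromatin protein gene Hmgb2 at 2083 and 375 CPM. Ccnd3 stood at 467 and 58.7 CPM, and Cdkn2d at 338 and 88.3 CPM. Pcna and Tk1 were lower in C1q-low cells, at 228 and 117 CPM, against 425 and 290.2 CPM. Among C1q-low gated cells 33.2% were cycling (62 of 187, 26.5 to 40.4), against 14.4% of those with at least 5 C1q UMIs (288 of 2005, 12.9 to 16.0). The non-cycling C1q-low cells had a median of 3457 UMIs, against 6926.5 in the cycling ones. B and plasma cell markers reached 7590 UMIs per 10000 in the non-cycling and 18.5 in the cycling ones. Depth and cell mix thus moved with these shares. Without the C1q-low cells, 208 genes were higher and 18 lower, of which 202 and 17 were shared with the 218 and 28 above.

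Cycling cells were found in every state examined among the gated cells, C1q-low cells included. States were set by overlapping UMI gates, and 341 of the 350 cycling cells fell in at least 1, 176 in at least 2 and 31 in at least 3. Among Clec4f+Vsig4 cells (at least 3 UMIs, Kupffer markers) 90 of 795 were cycling (11.3%, 9.20 to 13.7), and among Marco cells (at least 3) 45 of 518 (8.69%, 6.41 to 11.5). Among Gpnmb+Spp1 cells (at least 10, lipid-associated) 215 of 1237 were cycling (17.4%, 15.3 to 19.6), and among Mmp12 cells (at least 10) 96 of 410 (23.4%, 19.4 to 27.8). The counting intervals of the Clec4f+Vsig4 and Marco cells lay below those of the Gpnmb+Spp1 and Mmp12 cells, and many cells are in more than 1 gate. Among cells with at least 2 Cx3cr1 UMIs and at least 10 of MHC class II genes, 19 of 95 were cycling (interval 12.5 to 29.5%), and among Ccr2+Ly6c2 cells (at least 3) 84 of 274 (30.7%, 25.3 to 36.5). Of those 84 cycling cells, 59 were C1q-low and 25 held at least 5 C1q UMIs. Of 104 cells in none of these gates, 9 were cycling (8.65%, 4.03 to 15.8).

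Thinning changed part of this order. It acted on the macrophage and state gates as well as on the mitotic gate. The C1q-low cycling cells, 59 of the 84 cycling Ccr2+Ly6c2 cells, held a median of 6 macrophage gate UMIs before thinning. The part of each gate in the change was not tested. With every cell thinned to 2000 UMIs before gating, cycling shares were 5.54% in Clec4f+Vsig4, 4.60% in Marco, 7.18% in Gpnmb+Spp1, 8.61% in Mmp12, 12.1% in Cx3cr1 with MHC class II and 4.21% in Ccr2+Ly6c2 cells. The Ccr2+Ly6c2 share, the highest of the 6 without thinning, was the lowest after it, on 4 of 95 cells (1.16 to 10.4), and all thinned intervals overlapped. No order of the states is read from these shares. Limited to cells with at least 5 C1q UMIs, the Ccr2+Ly6c2 share was 17.0% (11.3 to 24.1), beside 14.4% over all such cells.

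**Figure D5:**
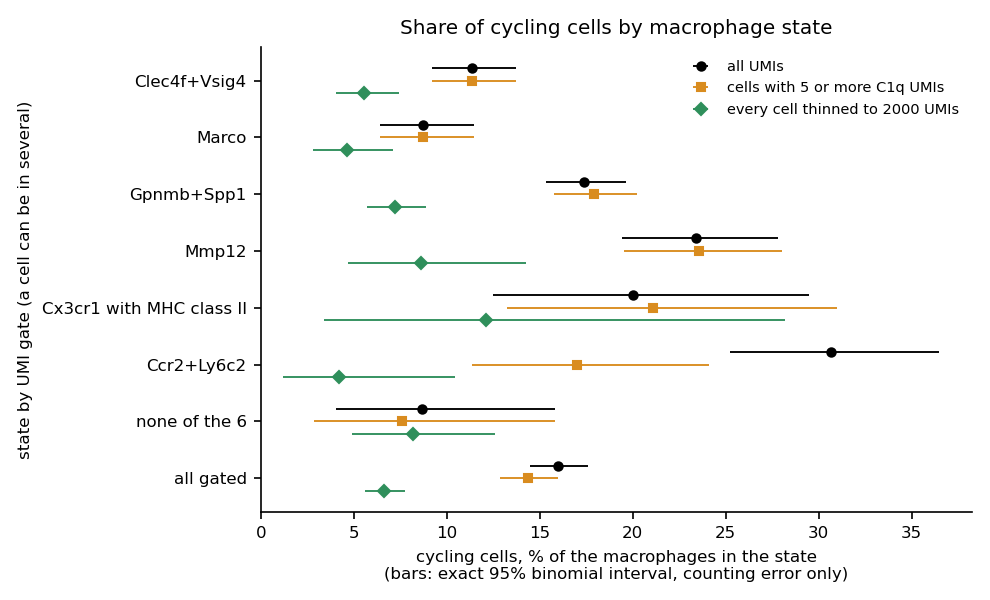
Share of cycling cells, in percent of the gated cells in each overlapping state, on all UMIs (circles), for cells with at least 5 C1q UMIs (squares) and with every cell thinned to 2000 UMIs (diamonds), with exact 95% binomial intervals that cover counting error only. The Ccr2+Ly6c2 point moves between 30.7%, 17.0% and 4.21%, and the Clec4f+Vsig4 point between 11.3%, 11.3% and 5.54%.

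The mix of states differed between the groups on all UMIs, so the comparison was repeated inside states. Gpnmb+Spp1 cells were 61.4% of cycling and 55.5% of non-cycling macrophages, Clec4f+Vsig4 cells 25.7% and 38.3%, and Ccr2+Ly6c2 cells 24.0% and 10.3%. Thinned to 2000 UMIs before gating, Gpnmb+Spp1 cells were 56.9% and 52.0%, and Clec4f+Vsig4 cells 30.7% and 37.0%. Ccr2+Ly6c2 cells were then 4 of 137 cycling and 91 of 1937 non-cycling macrophages, a smaller share of the cycling ones. With at least 5 C1q UMIs, Ccr2+Ly6c2 cells were 8.68% and 7.11%, and Gpnmb+Spp1 cells 74.3% and 57.1%. The difference in Ccr2+Ly6c2 cells thus moved with the setting. Inside the Gpnmb+Spp1 gate, 215 cycling cells were set against 1022 non-cycling cells, and 213 of 3242 genes were higher (6.57%) and 4 lower (0.123%). The cell cycle lists kept their size there, with medians of 2.43 for G2 and mitosis and 1.54 for S phase, and Prc1 stood at 412 CPM in cycling and 7.58 CPM in non-cycling cells. The Kupffer list did not, with a median of -0.16 over 12 genes and none past 2-fold, and the monocyte list had a median of -0.34. Among the genes still lower were Hist1h2bc, at 145 CPM in cycling and 671 CPM in non-cycling cells (-2.07), Slfn5 at 43.2 and 132 CPM (-1.27) and Clec4n at 21.8 and 63.7 CPM. Without the cells that also passed the Clec4f+Vsig4 gate, 186 cycling cells against 916 non-cycling cells gave 219 of 3260 genes higher (6.72%) and 4 lower (0.123%), and the Kupffer median was -0.05 over 10 genes with none past 2-fold. Markers of other cell types moved inside the Gpnmb+Spp1 gate too, where 4 of 10 neutrophil, 2 of 9 hepatocyte, 1 of 3 erythroid and 2 of 2 basophil and mast cell markers were higher and none of these was lower, and their part in the other values was not tested.

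Outside that gate, 135 cycling cells against 820 non-cycling cells gave 374 of 3899 genes higher (9.59%) and 168 lower (4.31%). The Kupffer list had a median of -1.30 with 14 of 18 genes lower, and the monocyte list a median of 1.39 with 11 of 19 higher and 1 lower. The lipid-associated list had a median of -0.51, with 8 of 23 genes lower and 2 higher. Of other cell types, 6 of 10 neutrophil markers were higher and 1 lower, and 6 of 10 hepatocyte and 2 of 2 erythroid markers were lower. Clec4f stood at 1712 CPM in cycling and 4250 CPM in non-cycling cells, Ly6c2 at 1725 and 209 CPM and F13a1 at 605 and 105 CPM. All but 1 of the 62 C1q-low cycling cells lie outside the gate, and their part and that of the other cell type markers in these values was not tested.

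Inside the Clec4f+Vsig4 gate, which holds none of the C1q-low cycling cells, 90 cycling cells against 705 non-cycling cells gave 216 of 3688 genes higher (5.86%) and 33 lower (0.895%). The Kupffer list had a median of -0.67 there, with 3 of 18 genes lower, namely Cd163 (341 CPM in cycling and 817 CPM in non-cycling cells), Cdh5 (220 and 499.8 CPM) and Clec1b (337 and 702 CPM). Clec4f and Vsig4, which set the gate, stood at 2448 and 3608 CPM in cycling and 4502 and 4777 CPM in non-cycling cells. The lipid-associated list had a median of 0.25 with 1 of 26 genes higher, Vim at 1017 and 476 CPM (log2 ratio 1.06), while Gpnmb stood at 4729 and 2393 CPM (0.98) and the galectin gene Lgals1 at 750 and 370.4 CPM (0.98). H2-Eb1, an MHC class II chain, stood at 109 and 250.5 CPM (-1.07) and Ccnd1 at 46.3 and 174 CPM (-1.55).

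The 350 cycling macrophages were also set beside the 688 other cells of the matrix with at least 5 mitotic UMIs, a comparison chosen after the data were seen. Of these 688, 631 held fewer than 5 macrophage gate UMIs, 148 held at least 20 UMIs of Elane, Mpo and Prtn3, and 109 held more than 1 of Msln and Upk3b, so they mix several cell types. Median depth was 7916.5 UMIs in cycling macrophages and 7599 in the other cycling cells. Of 3960 genes, 442 were higher in cycling macrophages (11.2%) and 381 lower (9.62%), with a median log2 ratio of -0.11 over all of them. The G2 and mitosis genes had a median of 0.00 over 56 genes and none past 2-fold.

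Part of the growth genes were lower in cycling macrophages than in the other cycling cells. Ccnd3 stood at 116 CPM in cycling macrophages and 328 CPM in the other cycling cells (log2 ratio -1.36), and Ccnd2 at 7.57 and 64.2 CPM (-1.61). Of 21 ribosome biogenesis genes, 6 were lower and the median was -0.78, and of 13 nucleotide synthesis genes 3 were lower, among them Phgdh, the first enzyme of serine synthesis (-2.31), with a median of -0.65. The chromatin genes Hmgb3, Hmgb2 and Hmgn2 stood at -2.26, -1.22 and -1.22. Of 34 replication genes, only Dut (-1.38) and Tipin (-1.01) were lower, a smaller share than the 9.62% of all 3960 genes. The median of the replication genes was -0.24, while Pcna and Tk1 stood at 0.65 and 0.70, under 2-fold. Of 10 myeloid growth factor and receptor genes 7 were higher in cycling macrophages, but Csf1r is a gate gene and the gate chose these cells for macrophage genes. Cell type and gate cannot be told apart in these values.

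Markers of other cell types were set beside these results. Neutrophil markers had a median of 5.41 UMIs per 10000 in cycling cells (range 0 to 3414) and 5.26 (0 to 2183) in non-cycling cells, yet 4 of the 10 that passed the filter were called higher in sum. In cycling cells, 4 cells held 1735 of 1840 Camp UMIs, and the rest came to 33.1 CPM, against 42.5 CPM in non-cycling cells without their 4 highest. Inside the Clec4f+Vsig4 gate 7 of 10 neutrophil markers were called higher, Camp at 982 and 43.7 CPM, and their part in the other values there was not tested. Prss34, a mast cell and basophil protease, had 1593 of its 1701 UMIs in 1 cycling cell, and Ly6d, on the dendritic list, had 85.9% of its UMIs in 1. Hepatocyte markers had medians of 9.60 and 14.9 UMIs per 10000, erythroid markers 42.1 and 47.1, and in sum over all macrophages none of 9 hepatocyte or 2 erythroid markers passed 2-fold, with list medians of -0.10 and -0.71. The B and plasma cell markers Igkc and Jchain were lower, but 24617 of 45275 non-cycling Igkc UMIs lay in 1 cell. T and NK, mesothelial, endothelial, dendritic and basophil lists had per-cell medians of 0 in both groups, and Cdh5, on the endothelial and Kupffer lists, was lower at 45.1 and 160.5 CPM.

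Clu, the gene of the knockout label, was counted in these cells, so they are given as cells of the matrix labelled CluKO. It summed to 730 UMIs in cycling and 564 in non-cycling macrophages, and 656 of the 730 lay in 1 cell. Without the 4 cells richest in it, Clu stood at 20.5 CPM in cycling and 34.8 CPM in non-cycling macrophages. Lrp2, the clusterin receptor of the study's title, had 0 UMIs in the 350 cycling macrophages, which allows a share of cells with a UMI of up to 0.857%, and 1 UMI in the 1842 non-cycling macrophages.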

How the data were processed

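Livers were dissociated with enzymes and red cells were lysed, and single cells were barcoded in microwells (Singleron GEXSCOPE), per the labels' protocols. The authors deposited UMI counts per gene and cell, raw whole numbers; the build is GRCm38, per the submitters' processing notes. No source used here names the aligner or how cells were called. Whether the authors counted by strand or split reads among copies is not given either.

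Gated cells of the pooled matrix were summed and scaled to CPM in Python 3.11.15 with numpy 2.4.6, pandas 2.3.3 and scipy 1.17.1. Intervals are exact at the 95% level (Poisson for levels, conditional binomial for ratios, Clopper-Pearson for shares) and cover counting error only; a count of 0 allows 3 counts. Thinning drew 2000 UMIs per cell with a fixed seed. Scrublet, through scanpy 1.11.5, marked 6 cells (0.130%) and was not used, and 23 cycling and 88 non-cycling cells lay in its top 5% of scores. Of 689 list genes, 685 were found by symbol, and 118 symbols stand on more than 1 identifier, whose counts were summed. Gene positions come from GENCODE for GRCm38. The scripts were tested on simulated data.

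Named genes are the 15 highest and 15 lowest by log2 ratio outside the gate and cell cycle lists, leaving out markers of other types, ribosomal, haemoglobin, mitochondrial and immunoglobulin genes, Gm- and Rik-named genes, Malat1, Neat1, Xist and Y-linked genes, up to 4 extremes of each list, Clu, Lrp2 and list members whose role the text turns on. Some genes under this rule are not reported here. The cells, lists and states were chosen with earlier results of these data known, so no list is independent support. Other thresholds, depths, offsets, filters and weightings of cells were tried; those on C1q and on each gene's top cell were added after seeing the data.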

Additional observations from a re-analysis of the deposited data

How the results depend on the processing

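No paired analysis was possible because the 6 samples share 1 matrix with no map from cells to samples, and no replicate could be left out for the same reason. The cycling share of 16.0% became 19.0% with at least 3 mitotic UMIs, 12.9% with at least 10, 14.1% with at least 10 macrophage UMIs, and 6.61% (137 cells) with the gate set after thinning to 2000 UMIs. The 218 higher genes stayed within 1.5 times that count except without cells holding markers of other types, where 118 were called and 16 shared; that setting left 4 cycling and 62 non-cycling cells. The 28 lower genes became 44 with at least 10 mitotic UMIs, 11 after thinning (5 shared), 47 with an offset of 5 CPM, 253 without cells holding markers of other types, 17 among cells with 4000 to 12000 UMIs (8 shared) and 18 with at least 5 C1q UMIs. After thinning, 177 of the 218 higher genes were shared, and the list medians were 1.14 (S phase), 2.04 (G2 and mitosis), -0.56 (Kupffer) and -0.37 (monocyte). An offset of 5 CPM gave 1.99 and 3.46 for S phase and for G2 and mitosis. At 4000 to 12000 UMIs the medians were -0.62 (Kupffer), -0.70 (lipid-associated), 0.11 (MHC class II) and 1.23 (monocyte). The monocyte median was -0.26 with at least 10 macrophage UMIs and -0.27 with at least 5 C1q UMIs. On the 4 cells without markers of other types the medians were -1.81 (Kupffer), -0.61 (lipid-associated), -4.03 (MHC class II) and 1.35 (monocyte). Single genes that changed sign were Fn1 (-0.31), Camp (-1.77), Ngp (-1.92), Lcn2 (-0.999) and Prss34 (-2.04) after thinning and Ccl24 (1.22) without cells holding markers of other types. The share of cells above the upper S-share limit, 6.00%, was 1.71% with limits at 0.25 and 0.75 and 3.55% with at least 10 mitotic UMIs, and the 68.9% below the lower limit was 58.9% with those limits. After thinning, state shares were 5.54% (Clec4f+Vsig4), 4.60% (Marco), 7.18% (Gpnmb+Spp1), 8.61% (Mmp12), 12.1% (Cx3cr1 with MHC class II), 4.21% (Ccr2+Ly6c2) and 6.61% (all), and with at least 5 C1q UMIs 17.0% (Ccr2+Ly6c2) and 14.4% (all). Of the values for single genes under these settings, 1510 kept direction and side of 2-fold, 62 no longer passed it, 42 newly passed it and 6 changed sign, and of those for the other list medians 212 stayed close and 22 moved, 9 of them after thinning; the cause was not tested.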
